A study of Mus musculus with 16 samples.

Results

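In undifferentiated MC3T3-E1 cells, an established mouse pre-osteoblast line, genes were sorted by 2 histone modifications mapped in the same culture state, trimethylation of histone H3 at lysine 4 (H3K4me3) and at lysine 36 (H3K36me3). A gene counted as marked at its promoter when an H3K4me3 region lay within 1 kb of any of its transcription start sites (TSSs), and as marked over its body when H3K36me3 regions covered 20% or more of the annotated length. These cut-offs placed each of 21282 genes on chromosomes 1 to 19 in 1 of 4 classes. Both marks were found at 7155 genes (33.6% of all), H3K4me3 only at 475 (2.23%), H3K36me3 only at 2760 (13.0%) and neither at 10892 (51.2%). The 2 lists are 2 of the 16 samples of the series and held 6920 H3K4me3 regions and 17829 H3K36me3 regions of the 314892 regions deposited in its 14 peak lists.

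The series mapped RUNX2, C/EBPβ and 5 histone marks by chromatin immunoprecipitation and sequencing (ChIP-seq), and its 2 input DNA samples are not analysed here. Differentiated cells, used below for a second look at the same genes, had been kept for 15 days in medium with ascorbic acid at 50 µg/mL and glycerol-2-phosphate at 10 mM, and they laid down mineralised matrix. Undifferentiated cells did not get this medium, and cells of both states were used at passages 5 to 12 and given ethanol vehicle for 3 h before fixation. The treatment label of the differentiated H3K36me3 sample is garbled, and its state was read from its title. Each antibody and state is 1 list of merged biological replicates, every region of the 2 lists joining at least 2 peaks, so no comparison below has a replicate check and none carries a p-value.

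H3K4me3 is laid down by SET1 and MLL complexes around the start sites of active and poised genes, often where CG dinucleotides are dense. H3K36me3 is laid down by SETD2, which travels with elongating RNA polymerase II, so that it marks the bodies of transcribed genes rather than their starts. The 2 marks therefore report on different steps of transcription of the same gene.

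The 300 bases before the annotated 5′ end are shown for 5 genes that stand for the classes, read from the mm9 assembly on the plus strand, with CG dinucleotides in capitals. Setd2 (chr9:110434801-110435100), the H3K36 trimethylase itself, and Col1a1 (chr11:94797238-94797537), the main collagen chain of bone, had both marks. Foxc2 (chr8:123639771-123640070), a forkhead transcription factor, had H3K4me3 only. Spp1 (chr5:104863837-104864136), which encodes the bone matrix protein osteopontin, had H3K36me3 only. Ibsp (chr5:104727890-104728189), which encodes bone sialoprotein, had neither mark.
Setd2: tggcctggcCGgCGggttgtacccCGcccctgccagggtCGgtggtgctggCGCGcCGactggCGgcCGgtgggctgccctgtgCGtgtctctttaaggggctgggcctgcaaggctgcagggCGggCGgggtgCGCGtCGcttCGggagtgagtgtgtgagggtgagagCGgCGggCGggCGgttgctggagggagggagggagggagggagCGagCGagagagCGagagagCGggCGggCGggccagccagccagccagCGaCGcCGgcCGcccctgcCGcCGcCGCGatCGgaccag
Col1a1: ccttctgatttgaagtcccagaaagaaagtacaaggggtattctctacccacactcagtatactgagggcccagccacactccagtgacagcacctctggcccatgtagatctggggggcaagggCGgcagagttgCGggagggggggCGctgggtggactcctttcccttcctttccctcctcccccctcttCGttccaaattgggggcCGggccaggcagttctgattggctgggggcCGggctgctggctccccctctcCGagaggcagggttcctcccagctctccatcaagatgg
Foxc2: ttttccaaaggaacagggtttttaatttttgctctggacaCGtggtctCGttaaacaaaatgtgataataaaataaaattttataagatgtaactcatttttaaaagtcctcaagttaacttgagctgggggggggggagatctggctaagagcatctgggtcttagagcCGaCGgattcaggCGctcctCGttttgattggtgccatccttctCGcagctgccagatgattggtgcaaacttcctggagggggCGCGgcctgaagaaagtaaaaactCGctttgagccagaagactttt
Spp1: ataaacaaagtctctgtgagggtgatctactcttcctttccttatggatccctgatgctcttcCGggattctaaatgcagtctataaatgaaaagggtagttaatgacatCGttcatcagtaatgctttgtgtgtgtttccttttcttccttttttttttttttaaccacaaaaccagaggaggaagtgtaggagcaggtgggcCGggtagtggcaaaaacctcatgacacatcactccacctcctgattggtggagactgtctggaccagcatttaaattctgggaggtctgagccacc
Ibsp: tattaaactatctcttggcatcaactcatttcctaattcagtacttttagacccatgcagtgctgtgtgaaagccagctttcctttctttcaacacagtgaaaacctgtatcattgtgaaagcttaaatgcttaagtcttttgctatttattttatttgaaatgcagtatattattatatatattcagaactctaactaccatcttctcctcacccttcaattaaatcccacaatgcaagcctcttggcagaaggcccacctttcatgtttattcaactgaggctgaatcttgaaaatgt

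The window before Setd2 held 35 CG dinucleotides, against 7 before Col1a1, 10 before Foxc2, 3 before Spp1 and 0 before Ibsp. Windows of the same length held a median of 19 CG over genes with both marks, 21 over genes with H3K4me3 only, 11 over genes with H3K36me3 only and 4 over genes with neither. The quartiles were 12 and 30 with H3K4me3 only, 5 and 18 with H3K36me3 only and 1 and 10 with neither. All 5 windows shown lay outside the quartiles of their class, so they are examples and not typical promoters. CG was searched as these 2 letters, which read the same on both strands, and 94.0% of all 21276 windows that could be read held it at least once. Col1a1 thus carried a wide H3K4me3 region with a CG count near the low end of its class, whose quartiles were 13 and 27.

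In the map of 9 osteoblast genes, the regions of both lists are drawn beside the gene body. At Col1a1 (chr11:94797538-94814356) the H3K4me3 region was 14.9 kb wide and 100% of the body lay under H3K36me3. At Sparc (chr11:55208002-55233582), which encodes the matrix protein osteonectin, the values were 12.0 kb and 99.8%. Foxc2 (chr8:123640071-123642792) had a 2.91 kb H3K4me3 region that spanned its whole 2.72 kb body and no H3K36me3 base inside it. Spp1 (chr5:104864137-104870069) had no H3K4me3 region near a start site and 90.4% of its body under H3K36me3, and Ibsp (chr5:104728190-104740488) had no base of either mark.

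**Figure D1:**
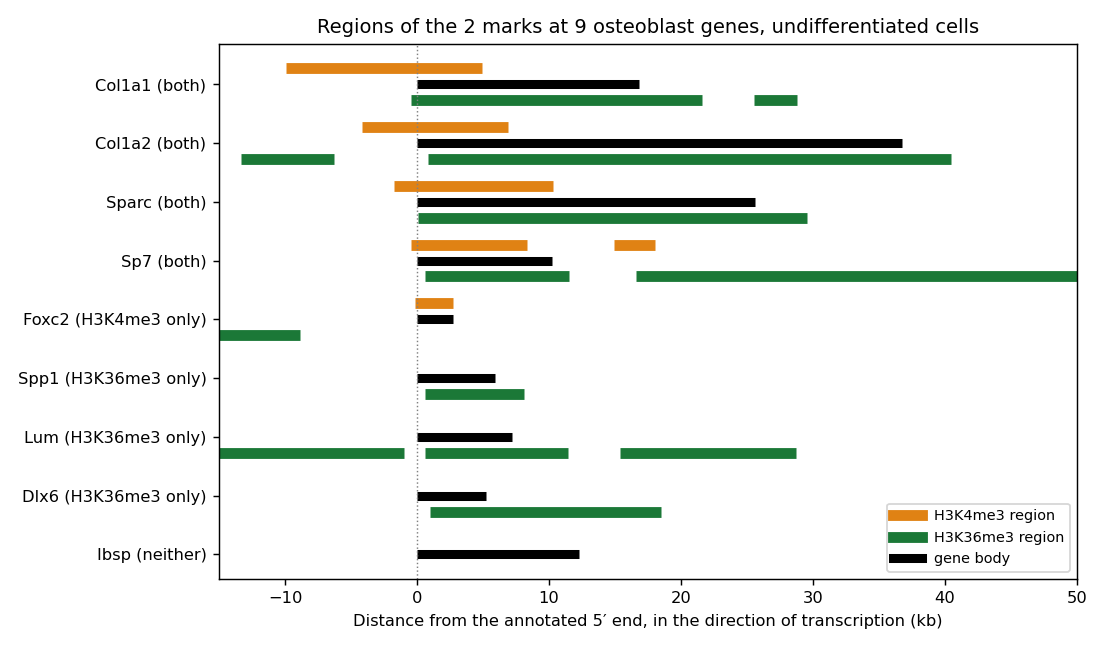
Regions of H3K4me3 (orange) and H3K36me3 (green) in undifferentiated cells at 9 osteoblast genes, by distance in kb from the annotated 5′ end in the direction of transcription, with the gene body in black. Only regions within 10 kb of the gene are drawn and those that reach the edge of the plot run on. H3K36me3 covers most of the body at Col1a1, Col1a2, Sparc, Sp7, Spp1, Lum and Dlx6, of which Spp1, Lum and Dlx6 have no H3K4me3 region, and Foxc2 has H3K4me3 over its body and H3K36me3 upstream of it only.

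Nearly every gene with H3K4me3 at its promoter also carried H3K36me3 over its body. Of the 7630 genes with promoter H3K4me3 (35.9% of all), 7155 passed the body threshold, which is 93.8% (95% exact Clopper-Pearson interval 93.2 to 94.3%). Of the 13652 genes without promoter H3K4me3, 2760 passed it, which is 20.2% (19.5 to 20.9%), and over all genes 46.6% passed. Read the other way, 72.2% (71.3 to 73.0%) of the 9915 genes with H3K36me3 over the body had promoter H3K4me3. Intervals here and below cover counting error only, genes are not replicates, and the lists hold no read counts, so that their depth is unknown. The chromatin came from whole cultures, where marks on the same DNA molecule and marks in different cells cannot be told apart.

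The percentage of the body under H3K36me3 split the genes near its ends. With promoter H3K4me3, 5301 genes (69.5%) had 80% or more of the body covered and 275 (3.60%) had no covered base. Without it, 1377 genes (10.1%) had 80% or more covered and 10134 (74.2%) had none. Few genes lay near the threshold in either group: between 0 and 20% lay 200 genes with and 758 genes without promoter H3K4me3, and from 20% to under 50% lay 472 with and 647 without.

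**Figure D2:**
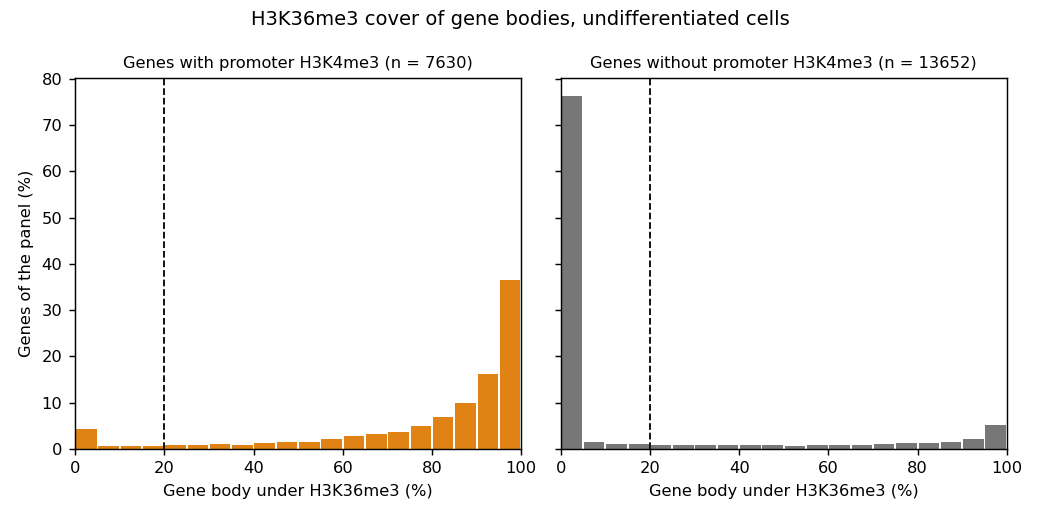
Share of genes (%) by the percentage of the gene body under H3K36me3, in steps of 5 percentage points, for the 7630 genes with promoter H3K4me3 (left) and the 13652 without (right). The dashed line is the 20% threshold. Most genes of the left panel lie at the upper end, with 69.5% at 80% or more, and 74.2% of the right panel have no covered base.

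The genes of 10 kb or more closest to the threshold with promoter H3K4me3 were Rasal2 at 20.04%, Phlpp1 at 20.1% and Lrp12 at 20.16% just above it, and Stx8 at 19.98%, Ppargc1b at 19.92% and Atl1 at 19.81% just below. Without promoter H3K4me3 they included Fam82a1 at 20.09% and Gm17268 at 20.18% above, and Sez6l2 at 19.99%, Pla2g4c at 19.95% and Bpgm at 19.88% below. Most of these bodies were long, such as Rasal2 at 277.4 kb and Stx8 at 241.0 kb.

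The share of H3K4me3 genes with a marked body was lower at both ends of gene length. It was 83.8% (81.1 to 86.2%) for genes under 5 kb and 86.7% (84.3 to 88.8%) for genes of 100 kb or more, and between 95.03% and 96.8% in the 4 length groups in between. Without promoter H3K4me3, the share was also lowest at the ends, 12.7% under 5 kb and 13.0% at 100 kb or more, against 22.9% to 28.8% in between. By width of the promoter region, cut at its quartiles into 4 groups, the share varied less, with 91.9% (90.6 to 93.1%) in the group of the narrowest H3K4me3 regions and 94.8% (93.7 to 95.7%) in that of the widest.

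Along genes with both marks, H3K4me3 at the start gave way to H3K36me3 within about 2 kb. Among the 4094 such genes of 20 kb or longer, the position 0.25 kb inside the gene was under H3K4me3 in 92.1% and under H3K36me3 in 8.18%. At 1.75 kb the shares were 53.9% for H3K4me3 and 60.2% for H3K36me3, and this position held both marks in 34.8% of genes, the highest of the 0.5 kb steps drawn. At 4.75 kb H3K4me3 was left in 11.6% of genes and H3K36me3 was present in 79.4%.

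The first H3K36me3 base of the 7155 genes with both marks lay a median of 1.10 kb inside the 5′ end (quartiles 0.535 and 1.96 kb). H3K36me3 covered the 5′ end itself in 960 of them (13.4%) and the last annotated base in 6767 (94.6%), where it ran on for a median of 4.33 kb past the gene end. In 6372 genes the 5′ end lay in an H3K4me3 region and H3K36me3 was found at or beyond the inner edge of that region. In 4522 of these (71.0%) the 2 marks touched or overlapped at the edge, and elsewhere the median gap was 1.12 kb.

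**Figure D3:**
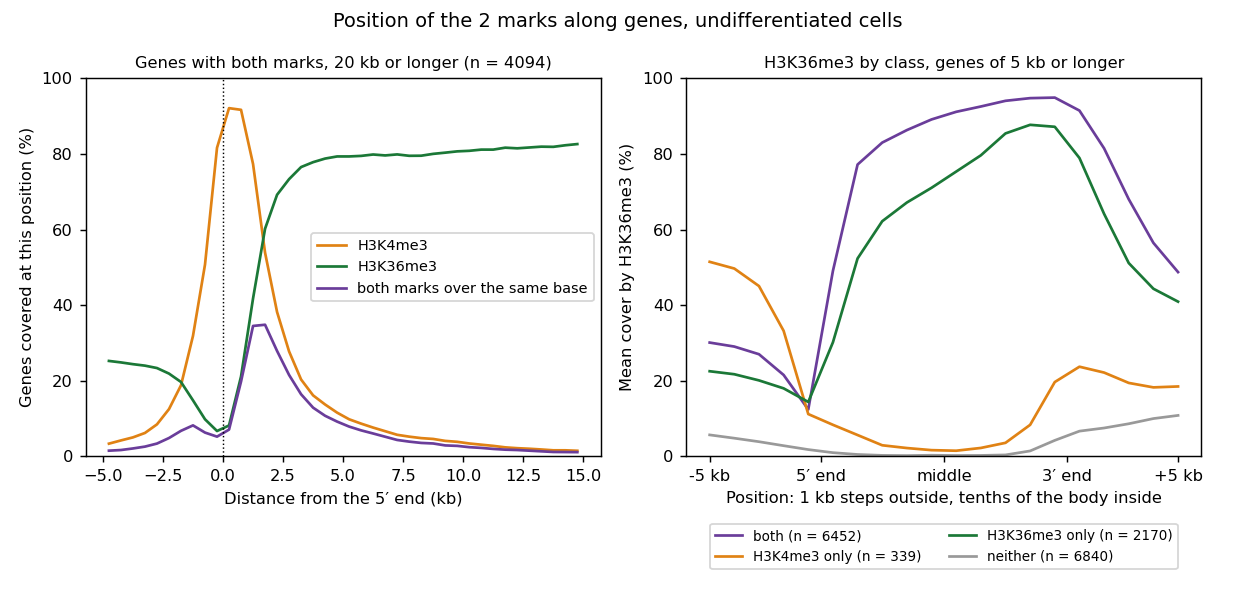
Left, the share of the 4094 genes with both marks and 20 kb or longer that are covered at each distance (kb) from the 5′ end by H3K4me3, by H3K36me3 and by both marks at once, where the H3K4me3 and H3K36me3 curves cross between 1.25 and 1.75 kb. Right, the mean percentage of each segment under H3K36me3 in the 4 classes, for genes of 5 kb or longer, in 1 kb steps outside the gene and 10 equal segments of the body inside. Cover climbs along the body in genes with both marks, reaching 94.9% in the last segment, and in genes with H3K4me3 only it is higher 5 kb before the gene, at 51.5%, than in the middle of the body.

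Counted over bases, the 2 marks overlapped in many places. Of the 26.1 Mb under H3K4me3 on chromosomes 1 to 19, 11.8 Mb (45.2%) also lay under H3K36me3, which covers 13.9% of these chromosomes. The product of the 2 covered shares would give 3.62 Mb, so the observed overlap was 3.26 times that. Gene bodies, which make up 38.4% of the chromosomes, held 75.2% of H3K4me3 bases and 90.5% of H3K36me3 bases. Of the H3K4me3 bases within gene bodies 54.2% lay under H3K36me3, against 32.7% of all bases there.

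Of 6795 H3K4me3 regions on these chromosomes, 6578 (96.8%) lay within 1 kb of a TSS and 5025 (74.0%) overlapped an H3K36me3 region by at least 1 base. Only 553 (8.14%) lay wholly inside H3K36me3. The overlap went with width: of 4 groups cut at the quartiles of width, the narrowest overlapped H3K36me3 in 48.0% (45.6 to 50.4%) of regions and the widest in 91.9% (90.5 to 93.2%). In bases, 20.8% of the narrowest group and 56.6% of the widest was shared. A wider region around a start site reaches further into the body and touches H3K36me3 more easily, so the rise is partly built into the measure.

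The genes that led the class with both marks, by the width of the promoter region among genes of 10 kb or more with at least 80% of the body covered, were Pgs1 (60.2 kb), Prrx1 (54.4 kb), Sfi1 (52.8 kb), Myh9 (51.0 kb), Cald1 (46.8 kb), Vmp1 (46.5 kb), Eef1g (35.2 kb) and Kirrel (33.3 kb). Prrx1 is a homeobox factor of mesenchymal cells, Myh9 encodes non-muscle myosin heavy chain and Cald1 the actin-binding protein caldesmon. Body cover ran between 90.4% in Vmp1 and 100% in Sfi1 and Eef1g. None of these regions, that at Sfi1 included, was checked here against the input DNA. Places where reads do not map uniquely therefore cannot be told apart from marked ones. The region at Pgs1 is the same one that lies near Socs3, a cytokine signalling inhibitor whose own region has the same 60.2 kb width. In differentiated cells the regions were 9.08 kb at Prrx1, 3.80 kb at Cald1 and 73.7 kb at Sfi1, and since the 8 genes were picked for width in undifferentiated cells, these values are no measure of a change.

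Most genes with H3K4me3 only shared their promoter region with a fully marked neighbour. In 300 of the 475 genes (63.2%, 58.6 to 67.5%), the H3K4me3 region also lay within 1 kb of a TSS of another gene that had both marks, which was so for 1691 of the 7155 genes with both (23.6%, 22.7 to 24.6%). H3K36me3 cover upstream of genes with H3K4me3 only was 51.5% at 5 kb before the start, against 30.1% in genes with both, for genes of 5 kb or longer. Their median length was 25.1 kb with quartiles at 3.11 and 100.9 kb, a spread wider than that of genes with both, at 24.9 kb with quartiles at 10.95 and 53.7 kb. With a body threshold of 10% the medians were 16.7 kb for H3K4me3 only and 25.1 kb for both, and with 50% they were 40.4 kb and 23.8 kb, so the order of the 2 medians turns with the threshold. The number of genes with H3K4me3 only was 947 at the 50% threshold. Their promoter regions were a little narrower, with a median width of 2.78 kb against 3.00 kb, and ranked lower within the H3K4me3 list by deposited score, at a median percentile of 41.5 against 54.5.

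The widest promoter regions over bodies with no H3K36me3 belonged to Tmem151a (24.4 kb), Lpxn (16.6 kb), Tnp2 (15.3 kb), Gm10463 (15.2 kb), Msh5 (15.1 kb), Gm10657 (14.1 kb), 4931440P22Rik (10.9 kb) and Apoh (10.5 kb). Several of these are genes of other tissues: Tnp2 encodes a transition protein of sperm, Msh5 a protein of meiotic recombination and Apoh a plasma protein made by the liver. None of the listed genes is among the 54, described below, whose region was not shared with a gene with both marks. These wide regions are thus not particular to the listed genes, and the 5′ end of Tnp2 lay 0.08 kb from its region. The Gm10463 region has the same 15.2 kb width as that of Fosl2, an AP-1 factor gene with both marks.

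Only 54 genes had H3K4me3, no H3K36me3 base in the body and a region not shared with a gene with both marks. They include Ier5l (10.4 kb wide), Chst11 (6.85 kb), Ier2 (4.04 kb), Sema5a (3.51 kb), Foxl2 (3.16 kb), Foxc2 (2.91 kb), Crem (1.51 kb) and Mt1 (1.36 kb), which were chosen after their values were seen, apart from Foxc2. Ier2 and Ier5l are short intronless genes of the immediate early response family, Foxl2 and Foxc2 are forkhead factors and Mt1 encodes metallothionein. Of the 54, 22 were under 5 kb long, against 28.6% of all 475 genes with H3K4me3 only. In differentiated cells 38 again had H3K4me3 only, a share near the 74.3% of all 475, so this was not particular to the 54. Of the others, 7 had both marks there, Cenpv had H3K36me3 only and 8 had neither.

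Genes with H3K36me3 only formed a mixed class, which H3K9Ac, a promoter acetylation mark that the sorting did not use, split in a clear way. Of the 2760, 1988 had H3K9Ac within 1 kb of a TSS and 772 had none. With H3K9Ac the median gene was 18.2 kb long and H3K36me3 covered the 5′ end in 9.15% (7.92 to 10.5%), and without it the median gene was 6.03 kb long and the 5′ end was covered in 60.1% (56.6 to 63.6%). An H3K36me3 region that touched the body also reached the body of a gene with both marks in 27.8% of genes with H3K9Ac and in 65.9% of genes without.

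The observed over expected ratio of CG dinucleotides, taken 500 bases to each side of the 5′ end, had a median of 0.658 in genes of this class with H3K9Ac and 0.273 in those without. The second value is close to the 0.269 of genes with neither mark. H3K4me3 was found at the promoter in differentiated cells in 54.8% (52.6 to 57.0%) of those with H3K9Ac and in 0.907% (0.365 to 1.86%) of those without.

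Across all 2760 genes, 1062 (38.5%) shared an H3K36me3 region with a gene with both marks and 456 (16.5%) overlapped such a gene in their annotated bodies. H3K4me3 lay more than 1 kb but within 5 kb of a TSS in 197 (7.14%), and 97 (3.51%) had an H3K4me3 region inside the body. Each of these counts was taken over all 2760 genes, so a gene can be in several of them. None of H3K9Ac, H4K5Ac and H3K4me1 lay near a start site in 450 (16.3%), and 319 of those shared a region with a gene with both marks. Among genes of 10 kb or more that overlap no other gene, 67 had 100% of the body under H3K36me3, and the first 8 by name were 4931406C07Rik, AU041133, Actr8, Adat1, Apbb1, Arhgap5, BC032203 and BC034090. Actr8 encodes a subunit of the INO80 remodelling complex and Adat1 a tRNA adenosine deaminase, and both had H3K9Ac at the promoter, while AU041133 and Apbb1 had none of the 3 other marks there.

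The longest genes with no H3K36me3 base and no promoter H3K4me3 were Ptprd (2271 kb), Cntnap2 (2241 kb), Lrp1b (2058 kb), Dlg2 (1945 kb), Csmd1 (1643 kb), Nrxn3 (1612 kb), Fhit (1612 kb) and Ctnna3 (1574 kb). Most of them are known for roles in neurons, such as the synaptic adhesion protein neurexin of Nrxn3 and the synaptic scaffold of Dlg2. Dlg2 and Ctnna3 had H3K9Ac at a promoter, and Ctnna3 alone of the 8 was in another class in differentiated cells, H3K4me3 only, with a 2.24 kb region. The median gene with neither mark was 9.79 kb long and lay 142.5 kb from the nearest H3K4me3 region, against 38.9 kb for genes with H3K36me3 only.

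Promoter acetylation and H3K4me1 were most frequent in genes with promoter H3K4me3, less so with H3K36me3 only, and least with neither mark. H3K9Ac lay within 1 kb of a TSS in 99.9% of genes with both marks, 98.9% with H3K4me3 only, 72.0% with H3K36me3 only and 9.26% with neither, and in 49.9% of all genes. For H4K5Ac the shares were 99.7%, 98.5%, 80.6% and 19.9% in the same order, and 56.4% over all. For H3K4me1, more often a mark of enhancers and promoter flanks, they were 99.4%, 98.9%, 80.3% and 24.0%, and 58.3% over all. All 3 marks were thus near nearly every promoter with H3K4me3, whether or not the body carried H3K36me3.

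The transcription factors were less evenly spread. RUNX2, the runt-domain factor that drives osteoblast differentiation, lay at the promoter of 35.4% (34.3 to 36.5%) of genes with both marks, 26.7% (22.8 to 31.0%) with H3K4me3 only, 16.0% (14.7 to 17.4%) with H3K36me3 only and 2.14% (1.88 to 2.43%) with neither, and 15.7% over all. C/EBPβ, a basic leucine zipper factor, lay at 22.2% (21.2 to 23.1%), 16.8% (13.6 to 20.5%), 13.9% (12.6 to 15.3%) and 2.66% (2.37 to 2.98%), and 11.0% over all. For both factors the share was higher in genes with both marks than in genes with H3K4me3 only, each from single lists. A site near any TSS counted, and the median gene had 3 TSSs with both marks and 2 with H3K4me3 only. Whether the number of TSSs sets this difference was not tested. When a RUNX2 site had to cover the TSS itself, the shares were 17.2% with both marks and 9.05% with H3K4me3 only.

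**Figure D4:**
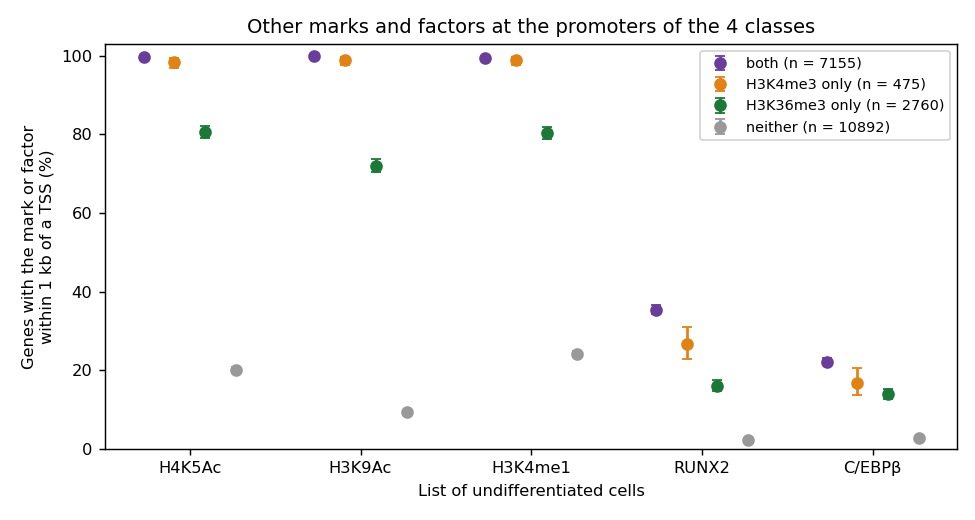
Share of genes (%) with each other mark or factor of undifferentiated cells within 1 kb of a TSS in the 4 classes, with exact 95% Clopper-Pearson intervals as bars. Genes with both marks and with H3K4me3 only lie at 98.5% or more for the 3 histone marks, genes with H3K36me3 only lie between 72.0% and 80.6%, and the 2 factors rank the classes in the same order.

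Promoters also differed in sequence between the classes. The observed over expected CG ratio had a median of 0.779 in genes with both marks, 0.749 with H3K4me3 only, 0.583 with H3K36me3 only and 0.269 with neither. It was 0.6 or more in 84.4%, 79.2%, 47.4% and 20.04% of genes in that order. GC content had medians of 60.3%, 59.7%, 55.5% and 49.6%. The CG counts of the 300 bases before the start, given above, put genes with H3K4me3 only (21) above genes with both (19).

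Gene groups differed widely in their classes. Over all genes the shares were 33.6% with both marks, 2.23% with H3K4me3 only, 13.0% with H3K36me3 only and 51.2% with neither. Of the 24 osteoblast matrix genes, 11 (45.8%) had both marks, none had H3K4me3 only, 4 (16.7%) had H3K36me3 only and 9 (37.5%) had neither. Those with both were the collagens Col1a1 (14.9 kb and 100% of the body) and Col1a2 (11.1 kb and 97.7%), and Sparc, Ank, Ogn, Fmod, Postn, Lox, Fn1, Serpinh1 and Pcolce. Their H3K4me3 regions spanned 4.79 kb at Ank, the pyrophosphate transporter, to 14.9 kb at Col1a1, all above the class median of 3.00 kb. Body cover in these 11 was lowest at Ank, with 63.8%.

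The 4 matrix genes with H3K36me3 only were Spp1 (90.4% of the body), Omd (79.6%), Dcn (98.3%) and Lum (91.5%), of which the last 3 encode small leucine-rich proteoglycans. All 4 had H3K9Ac at the promoter, as did 72.0% of all genes with H3K36me3 only. The 9 with neither mark were Ibsp, Alpl, Bglap, Bglap2, Dmp1, Mepe, Dspp, Enpp1 and Phospho1, among them the genes of mineralisation enzymes (Alpl, Enpp1, Phospho1) and of late osteoblast and osteocyte proteins (Bglap, Dmp1, Mepe). All 9 had 0% of the body under H3K36me3. Bglap and Bglap2 are near-identical neighbouring copies, where reads may not map to one place.

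In differentiated cells, 14 of the 24 had both marks, 3 had H3K36me3 only and 7 had neither. Spp1 then had a 3.04 kb H3K4me3 region and 96.1% of the body covered, and Lum a 1.86 kb region and 81.3%. Phospho1 had both marks, with 1.52 kb and 61.1%, against 0 kb and 0% in undifferentiated cells. Ibsp had no H3K4me3 and 86.5% of its body under H3K36me3, against 0% in undifferentiated cells, and Alpl, Bglap, Bglap2, Dmp1, Mepe, Dspp and Enpp1 had neither mark in either state.

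Of the 24 osteoblast transcription factors, 17 had both marks, 2 had H3K4me3 only, 2 had H3K36me3 only and 3 had neither. Runx2 had a 13.0 kb H3K4me3 region and 78.8% of its body covered, Sp7, which encodes osterix, had 8.82 kb and 93.8%, and the widest region belonged to Prrx1 (54.4 kb). The genes with H3K4me3 only were Twist2, with a 2.55 kb region and 2.84% of the body covered, and Foxc2. The genes with H3K36me3 only were the homeobox genes Dlx6 (80.8%) and Msx1 (37.5%), and Dlx3, Msx2 and Hey1 had neither mark. In differentiated cells Sp7 had no H3K4me3 and 99.8% of its body covered, and Cebpb, Cebpd and Junb kept H3K4me3, at 2.95 kb, 3.59 kb and 4.07 kb, while body cover was 6.98%, 0% and 0%, against 42.2%, 49.8% and 61.5% in undifferentiated cells.

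Of 12 genes of osteoclast coupling and matrix remodelling, 7 had both marks, 2 had H3K36me3 only and 3 had neither. Those with both were Tnfrsf11b, the decoy receptor osteoprotegerin, with a 6.45 kb region and 96.4% of the body, Csf1, Cxcl12, Mmp2, Mmp14, Timp2 and Timp3. Csf1, the macrophage growth factor, had the widest region at 30.2 kb. Il6 (30.1%) and Ccl2 (69.1%), both secreted signals of inflammation, had H3K36me3 only. Tnfsf11, which encodes the osteoclast factor RANKL, and the proteases Mmp9 and Mmp13 had neither, and in differentiated cells 90.3% of Mmp13 lay under H3K36me3, still with no promoter H3K4me3.

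Of 30 genes of Wnt, BMP and TGFβ signalling, 21 had both marks, 1 had H3K4me3 only, 3 had H3K36me3 only and 5 had neither. All 3 TGFβ ligands and all 3 receptors of the list had both, such as Tgfb2 with 6.39 kb and 96.4%. Lef1, a nuclear partner of β-catenin, had a 2.29 kb H3K4me3 region and 2.99% of its 113.9 kb body covered, and 28.9% in differentiated cells. Tcf7 (34.2%), Bmp4 (100%) and Smad5 (77.7%) had H3K36me3 only. The Wnt inhibitors Dkk1, Sost and Sfrp1, the ligand Bmp2 and the receptor Bmpr1b had neither mark. Members of this list and of those that follow were singled out after their values were seen.

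Genes that dividing cells use were marked nearly throughout. All 16 mitosis genes had both marks, from Ccnb2 with a 1.18 kb region to Kif11, a spindle kinesin, with 7.23 kb, and body cover between 81.5% and 100%. Of 27 DNA replication genes, 23 had both marks and 4 had H3K36me3 only, among them the polymerase genes Pold1 (89.0%) and Pole (97.3%) and the clamp loader gene Rfc4 (91.9%). In differentiated cells 13 of the 16 mitosis genes had both marks, while Ccnb1 had H3K4me3 only and Ccnb2 and Bub1 had H3K36me3 only.

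Immediate early genes, which cells switch on within minutes of a stimulus, had both marks in 16 of 24, H3K4me3 only in 2, H3K36me3 only in 3 and neither in 3. H3K9Ac lay at the promoter of all 24. Jund had a 2.05 kb H3K4me3 region and 10.1% of its body covered, and Ier2 had 4.04 kb and 0%. Ctgf (73.2%), Klf2 (62.4%) and Nr4a1 (60.0%) had H3K36me3 only, and Fosb, Egr3 and Atf3 had neither. The widest region was that of Socs3, at 60.2 kb.

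Constitutive machinery was close to fully marked. Of 78 genes named as cytosolic ribosomal proteins, 74 had both marks, Rpl35 had H3K36me3 only (94.8% of the body) and Rpl10l, Rpl39l and Rpl3l, paralogs of the standard genes, had neither. Of 79 oxidative phosphorylation genes, 68 had both, 8 had H3K36me3 only and Atp5sl and Atp5l-ps1 had neither, and the assembly factor Ndufaf2 had H3K4me3 only, with 10.8% of its 106.0 kb body covered. Of 38 proteasome genes, 34 had both, Psmb9 had H3K4me3 only (1.92 kb and 0%), and Psmb8, Psmb11 and Psma8 had neither. Psmb8 and Psmb9 encode immunoproteasome subunits, Psmb11 the thymus subunit and Psma8 a testis subunit. Of the 10 housekeeping genes, 8 had both, such as Gapdh (7.05 kb and 100%) and Actb (12.1 kb and 100%), and 2, among them Gusb (88.4%), had H3K36me3 only.

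Genes of enzymes that add or remove methyl groups at H3K4 or H3K36, not all of them trimethyl, and of complex subunits such as Wdr5 and Men1, were marked in all 23 cases, 20 with both. Setd2 had a 2.82 kb H3K4me3 region and 98.9% of its body under H3K36me3, and the H3K4 methyltransferase genes Setd1a, Setd1b, Mll1, Mll2 and Mll3 had regions of 2.69 kb to 13.2 kb and body cover of 68.1% to 100%. Nsd1 (97.4%) and Ash1l (100%), both H3K36 methyltransferase genes, and the demethylase gene Kdm4b (62.8%) had H3K36me3 only. In differentiated cells Nsd1 had a 1.42 kb H3K4me3 region as well.

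Of 39 Hox genes, which set position along the body axis and limbs, 25 (64.1%) had neither mark, against 51.2% of all genes. Both marks were found at 2 (5.13%, against 33.6%) and H3K36me3 only at 12 (30.8%, against 13.0%). Those with both, Hoxc6 (11.9 kb and 27.5%) and Hoxc9 (5.36 kb and 20.19%), lay close to the body threshold. Among the 12 were 8 Hoxa genes, such as Hoxa4, Hoxa5 and Hoxa6 at 100% and Hoxa10 at 69.1%. H3K9Ac lay at the promoter of 8 of the 12, close to the 72.0% of all genes with H3K36me3 only. No Hoxb and no Hoxd gene had either mark in either state. Hox genes lie in tight clusters, where 1 H3K36me3 region can cover several short genes.

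Replication-dependent histone genes showed acetylated promoters with hardly any of the 2 marks. Of 67, Hist3h2a had both (4.94 kb and 36.3%) and 66 had neither, while 56 had H3K9Ac and 57 had H4K5Ac at the promoter. In differentiated cells 13 of them had H3K4me3 only, with regions of 2.00 kb to 6.87 kb, and 53 had neither. These genes are short and exist in near-identical copies, so that reads may not map to one place and the values are uncertain.

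Of 333 zinc finger genes named Zfp and a number, 144 had both marks, 5 had H3K4me3 only, 119 (35.7%) had H3K36me3 only and 65 had neither. Those with H3K4me3 only were Zfp605, Zfp800, Zfp428, Zfp710 and Zfp407, with 0% to 17.7% of the body covered. Of the 119, 85 had H3K9Ac at the promoter, close to the 72.0% of all genes with H3K36me3 only. Of 38 developmental regulators of other lineages, 9 had both, among them Pax3, Six2, Tbx15 and Tbx18, and 3 had H3K36me3 only (Pax6, Pax9 and Gata2), and 26 had neither. Pax3 had a 3.24 kb H3K4me3 region and 99.5% of its body covered, and Six2 had 13.5 kb and 95.9%.

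Olfactory and vomeronasal receptor, keratin, adipocyte, muscle and neural genes were nearly free of both marks, and chondrocyte markers were less so. Of 1081 olfactory receptor genes Olfr99 alone had H3K36me3 only and none had H3K4me3, all 318 vomeronasal receptor genes had neither, and of 46 keratin genes Krt10 alone had H3K36me3 only. All 12 adipocyte, all 11 muscle and all 11 neural markers had neither mark. Of 11 haematopoietic markers only Cd68 and of 9 endothelial markers only Flt1 had a mark, in each case H3K36me3 over the body. Of 12 chondrocyte markers, the factors Sox9 and Sox6 had both, and the collagens Col2a1 (66.1%) and Col10a1 (100%) had H3K36me3 only. Of the 12 osteoblast markers, 7 had both marks, Spp1 had H3K36me3 only, and Alpl, Ibsp, Bglap and Bglap2 had neither.

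**Figure D5:**
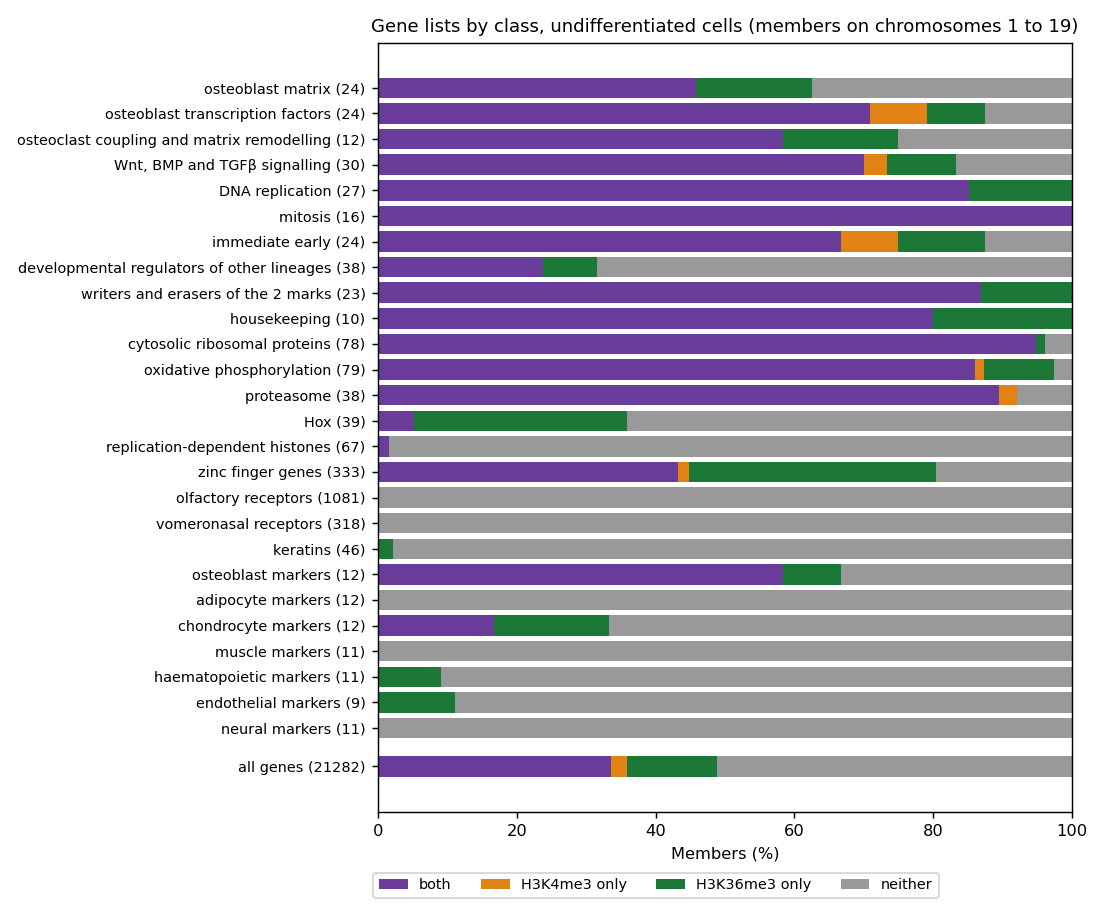
Members (%) of each gene list in the 4 classes in undifferentiated cells, with the number of members in brackets and all 21282 genes in the lowest bar. Mitosis genes are all in the class with both marks, Hox and zinc finger genes show large shares with H3K36me3 only, and receptor, keratin, adipocyte, muscle and neural genes lie almost wholly in the class with neither mark.

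Classes with both marks or neither held across the states, and genes with H3K36me3 only changed most. In differentiated cells 8029 genes (37.7%) had both marks, 632 (2.97%) had H3K4me3 only, 1934 (9.09%) had H3K36me3 only and 10687 (50.2%) had neither. Of the genes with both in undifferentiated cells, 6841 (95.6%, 95.1 to 96.1%) had both again, 254 had H3K36me3 only, 49 had H3K4me3 only and 11 had neither. Of those with neither, 96.0% had neither again, and of those with H3K4me3 only, 353 (74.3%, 70.1 to 78.2%) stayed so.

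Of the 2760 genes with H3K36me3 only in undifferentiated cells, 1068 (38.7%, 36.9 to 40.5%) had both marks in differentiated cells and 1496 (54.2%) had H3K36me3 only again. The groups differed in the acetylation of undifferentiated promoters: H3K9Ac was present at 99.3% (98.7 to 99.7%) of genes that had both marks later and at 53.7% (51.2 to 56.3%) of genes with H3K36me3 only in both states. RUNX2 sites were present in undifferentiated cells at 24.6% (22.1 to 27.3%) of genes that had both marks later and at 10.96% (9.42 to 12.7%) of those with H3K36me3 only in both states. C/EBPβ (18.9% against 10.6%), H4K5Ac (99.5% against 67.4%) and H3K4me1 (98.3% against 67.9%) differed the same way, so this was not particular to RUNX2. Whether the RUNX2 difference goes beyond that in H3K9Ac was not tested.

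The lists of H3K4me3 differed in length and shape as well, with 8196 regions of median 2.42 kb in differentiated cells and 6920 of median 2.87 kb in undifferentiated cells, while H3K36me3 covered 13.9% of the chromosomes in each state. With only the upper scoring part of the undifferentiated H3K4me3 list, 6009 genes had H3K36me3 only in place of 2760. Whether the length of the H3K4me3 list set the number of genes with H3K36me3 only was not tested, and a difference in depth or enrichment and a difference between the states cannot be told apart in single lists.

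The share of genes with both marks varied by chromosome between 23.1% of 2065 genes on chromosome 7 and 42.9% of 720 genes on chromosome 19. Chromosome 7 also had a high share with neither, at 61.3%, second to the 62.7% of chromosome 14. The share with H3K4me3 only lay between 1.46% on chromosome 6 and 2.94% on chromosome 2, and that with H3K36me3 only between 9.63% on chromosome 1 and 16.4% on chromosome 9.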

How the data were processed

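ChIP-seq reads were aligned to mm9 with Bowtie and HOMER called the regions, per the submitters' processing notes. Both tools' versions and the calling thresholds were not given in the sources used here. Each deposited list gives the merged regions of biological replicates with a score, which is the authors' own value and was used only to rank regions within their own list. Replicates cannot be seen separately, and read depth is unknown.

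Gene classes were counted with the NCBIM37 (mm9) assembly and the GENCODE vM1 annotation, for protein-coding genes on chromosomes 1 to 19, and Cebpd, annotated as a pseudogene, was added by name. Where a symbol had several gene models the longest was kept, which left out 142 models, and 66986 TSSs were used. Positions are 1-based. Shares carry exact Clopper-Pearson 95% intervals. No test was made, as there are no replicates. The class counts and overlaps were tested on simulated data. Python 3.11.15, NumPy 2.4.6 and SciPy 1.17.1 were used.

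The genes named are the members of 5 lists in list order, the 8 leading genes of each class, and the 3 genes of 10 kb or more on each side of the 20% threshold; ties were ordered by name. All other genes named were picked with their values known. The 7 list members on the X chromosome or with no gene of that name in the annotation (Timp1, Pola1, Gata1, Sox1, Mymk, Spi1 and Syn1) were not used here. The members and lists were chosen with earlier results of these data known. The settings varied were the distance to a TSS, the TSSs used, the body threshold, the part of the gene covered, the scores, joined gaps, the genes used and the sequence window. The values of a few genes that the rule names are not reported here, though the counts include them.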

Additional observations from a re-analysis of the deposited data

Results flagged for a closer look

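The X chromosome was outside the comparison of chromosomes 1 to 19, and its genes carried the marks as well. Of its 927 genes, 128 had both marks (13.8%), 6 had H3K4me3 only (0.647%), 164 had H3K36me3 only (17.7%) and 629 had neither (67.9%). The input DNA of the same cells is not analysed here, so no control value stands beside these counts. Each of the 19 other chromosomes had a higher share with both marks, the lowest being 23.1% on chromosome 7, and a lower share with H3K36me3 only, the highest being 16.4% on chromosome 9.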

How the results depend on the processing

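Of 159 results recomputed under other settings, 127 moved by less than 1.5 times for a count, or stayed within the interval of the value for a share or a median, and 32 moved by more. Taking only H3K4me3 regions with scores at or above the list's median left 3906 genes with both marks, 192 with H3K4me3 only and 6009 with H3K36me3 only. The number with H3K4me3 only was 947 at a body threshold of 50% and 979 with the same cut on H3K36me3 scores. It was 292 of the 17190 genes left without overlapping genes. Once genes under 5 kb were left out, 6840 of the 15801 genes left had neither mark. The main counts are of 21282 genes, so counts over fewer genes fall partly because genes were removed. The share of H3K4me3 genes with a marked body ranged between 87.2% and 95.3% over all settings.

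Median length with a 50% threshold was 23.8 kb for both marks, 40.4 kb for H3K4me3 only, 12.8 kb for H3K36me3 only and 10.4 kb for neither, and with a 10% threshold it was 16.7 kb for H3K4me3 only, 15.5 kb for H3K36me3 only and 9.32 kb for neither. Without overlapping genes it was 25.8 kb, 34.3 kb, 15.9 kb and 9.14 kb in the order of the classes, and 12.7 kb for neither without receptor genes. The order of H3K4me3 only and both by length thus turned with a 10% threshold, and the cause was not tested.

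H3K9Ac in genes with H3K36me3 only was 77.9% within 5 kb and 69.9% at a 10% threshold. RUNX2 was at 17.2% of genes with both marks and 9.05% with H3K4me3 only when it had to cover the TSS, and at 41.6% and 36.4% within 5 kb. In a window of 300 bases around the 5′ end the CG ratio was 0.815 with both and 0.803 with H3K4me3 only, and at a 50% threshold it was 0.282 for neither. H3K36me3 began 1.43 kb inside genes of 20 kb or more, 689 genes with H3K36me3 only shared a region once genes under 5 kb were left out, and at a 50% threshold 0 Hox and 0 histone genes had both marks. No paired analysis was possible because each antibody and state is 1 merged list. What the lists cannot show is limited by depth, which is unknown.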
